A study of Mus musculus with 9 samples.

Results

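Some glucocorticoid receptor (GR) peaks of N2A mouse neuroblastoma cells lay over more than 1 peak of the mineralocorticoid receptor (MR). The regions described here are the GR peaks after corticosterone (CORT) that shared at least 1 bp with 2 or more separate MR peaks after CORT, on chromosomes 1 to 19 and X, leaving out peaks in the coding exons of the 2 receptor genes. There were 551 such regions among 10548 GR peaks, which is 5.22% of them. A further 5875 GR peaks overlapped exactly 1 MR peak and 4122 overlapped none. Of the 551 regions, 521 held 2 MR peaks, 27 held 3 and 3 held 4. The regions were chosen by the GR and MR peak lists after CORT, so the number, place and strength of those peaks are given below as a description, and tests were made only on the lists after washout and on DNA sequence.

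GR was tagged with EGFP and MR with mCherry, and both were transiently expressed together in every sample, on a cell line with GR but no MR of its own per the study. The text deposited with the data calls the receptors mouse, and the study's methods describe rat cDNA. Cells in steroid-stripped serum were given vehicle or 100 nM CORT over 20 min, and a last set was given the same CORT pulse, washed 2 times and left without steroid over 40 min more (washout). The 9 samples are GR, MR and input chromatin under each of these treatments, assayed by ChIP-nexus, in which an exonuclease trims precipitated DNA towards the crosslinked protein. The 3 replicates of a condition had been combined into 1 peak list, so no value here has a replicate error, and p-values over regions compare these lists and not biological replicates. Per the study, fewer CORT sites were called in at least 2 of the 3 replicates than in the combined lists, above all for GR. Which of the regions those sites cover cannot be told from the lists.

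GR and MR are steroid-activated transcription factors of the same family, with nearly the same DNA-binding domain. CORT activates both, and MR holds it more tightly. Each can bind as a pair of molecules to a glucocorticoid response element (GRE), a sequence of 2 inverted arms of 6 bases with 3 free bases between them, and each can also reach DNA through other bound proteins. A peak caller marks a stretch where fragments pile up above input and, within it, a summit where the pile is highest.

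The sequence at the summits is shown first for regions with strong GR peaks, because they hold a kept and a lost MR summit, or several kept ones, side by side. MR peaks are numbered by position along the chromosome. An MR peak was kept when a peak of the MR washout list overlapped it. Each line is the plus strand of GRCm38 from 57 bp before to 57 bp after an MR summit. Capitals mark a GRE within 50 bp of the summit, that is AGAACA, 3 bases of any kind, and TGTTCT with at most 3 mismatches in the 12 fixed positions. The first pair is from the intron of Nfkbia, which encodes the inhibitor of NF-κB that glucocorticoids induce.
Nfkbia MR summit 1, not kept, chr12:55491737-55491851: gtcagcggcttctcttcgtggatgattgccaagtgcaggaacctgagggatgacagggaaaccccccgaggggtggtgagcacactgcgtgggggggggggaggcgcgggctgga
Nfkbia MR summit 2, kept, chr12:55491962-55492076: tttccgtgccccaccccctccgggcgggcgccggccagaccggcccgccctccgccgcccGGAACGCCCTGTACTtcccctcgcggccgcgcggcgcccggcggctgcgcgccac
The kept Nfkbia summit had a GRE with 3 mismatches whose centre lay 10 bp from it, while the best match near the lost summit had 5 mismatches. The next pair is from an intron of Fkbp5, the gene of a co-chaperone that lowers steroid binding by GR, where both peaks were kept and the first had a GRE with 3 mismatches.
Fkbp5 MR summit 1, kept, chr17:28512854-28512968: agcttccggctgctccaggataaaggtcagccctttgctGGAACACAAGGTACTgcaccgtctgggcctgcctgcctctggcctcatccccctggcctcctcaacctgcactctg
Fkbp5 MR summit 2, kept, chr17:28513198-28513312: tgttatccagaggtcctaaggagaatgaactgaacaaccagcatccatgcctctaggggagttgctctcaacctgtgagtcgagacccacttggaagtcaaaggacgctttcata
An intron of Ptpn11, which encodes the tyrosine phosphatase SHP-2, held 4 MR summits, and the third alone had a GRE by this definition.
Ptpn11 MR summit 1, not kept, chr5:121187523-121187637: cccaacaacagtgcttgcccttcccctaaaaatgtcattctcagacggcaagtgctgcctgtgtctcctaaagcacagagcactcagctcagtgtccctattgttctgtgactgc
Ptpn11 MR summit 2, kept, chr5:121187706-121187820: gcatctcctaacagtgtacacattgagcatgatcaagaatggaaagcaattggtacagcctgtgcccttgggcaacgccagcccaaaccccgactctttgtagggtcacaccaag
Ptpn11 MR summit 3, kept, chr5:121187853-121187967: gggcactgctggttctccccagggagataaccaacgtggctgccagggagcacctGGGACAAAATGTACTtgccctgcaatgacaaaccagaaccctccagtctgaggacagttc
Ptpn11 MR summit 4, not kept, chr5:121188032-121188146: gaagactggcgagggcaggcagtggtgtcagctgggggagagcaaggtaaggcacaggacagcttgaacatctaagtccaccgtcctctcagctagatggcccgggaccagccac
In an intron of Extl1, a glycosyltransferase-like gene of the exostosin family, neither summit had a GRE with 3 mismatches or fewer. The kept summit was at 4 mismatches and the other at 5.
Extl1 MR summit 1, not kept, chr4:134378682-134378796: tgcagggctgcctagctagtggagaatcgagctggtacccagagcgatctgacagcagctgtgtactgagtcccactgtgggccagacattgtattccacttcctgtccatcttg
Extl1 MR summit 2, kept, chr4:134378856-134378970: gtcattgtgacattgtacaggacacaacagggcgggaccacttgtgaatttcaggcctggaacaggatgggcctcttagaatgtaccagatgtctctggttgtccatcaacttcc

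Neighbouring MR summits of a region were mostly 100 to 200 bp apart. An MR summit is called under a GR peak here when its MR peak overlapped the GR peak, so the summit itself could lie outside. With the MR summits themselves required inside the GR peak, 379 of the 551 regions had 2 or more. The median distance between neighbouring MR summits was 145.5 bp, with quartiles of 111 and 197.25 bp and a range of 52 to 654 bp over 584 neighbouring pairs. Of these pairs, 95 (16.3%) were under 100 bp apart, 219 (37.5%) were 100 to under 150 bp apart, 131 (22.4%) were 150 to under 200 bp apart, 108 (18.5%) were 200 to under 300 bp apart and 31 (5.31%) were farther apart. The edges of neighbouring MR peaks were separated by a median of 58 bp, with a range of 41 to 233 bp. No gap between any 2 peaks of the whole MR CORT list was shorter than 41 bp, so what counts as separate MR peaks has a floor in the list itself.

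**Figure D1:**
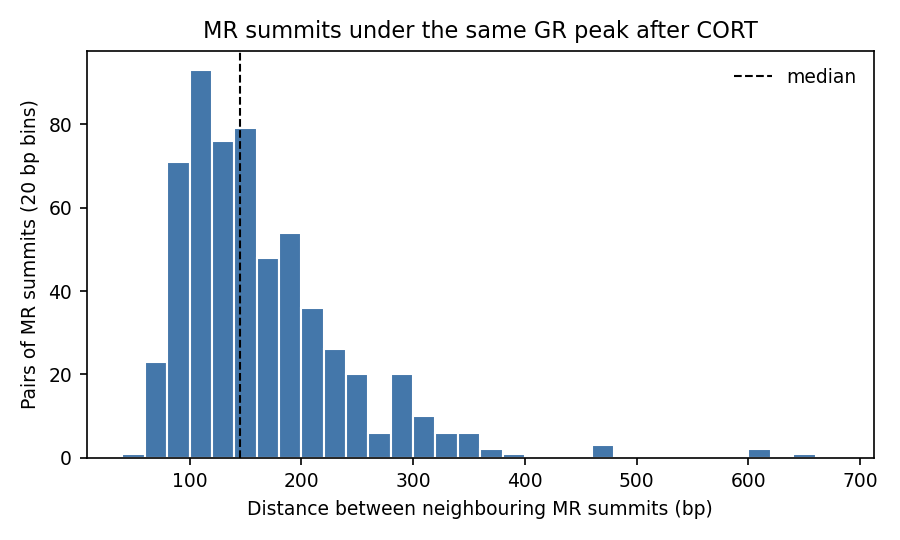
Histogram of the distance in bp between neighbouring MR summits whose peaks overlapped the same GR peak after CORT (x axis). The y axis is the number of pairs in 20 bp bins, and the dashed line is the median of 145.5 bp. The 584 distances run from 52 to 654 bp and 31 of them are 300 bp or more.

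The 2 lists differed in how short a peak could be. The shortest GR peak after CORT was 81 bp and the shortest MR peak was 34 bp, with medians of 121 and 63 bp over the whole lists. The GR peaks of the 551 regions were 81 to 1020 bp wide with a median of 266 bp, against a median of 139 bp for GR peaks with 1 MR peak. The MR peaks in the regions had a median width of 75 bp, against 92 bp where there was only 1. A region in which GR bound at 1 place beside several MR places, and a region in which several GR places were called as 1 peak, cannot be told apart from these lists.

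The GR peak and the strongest MR peak of a region had higher median strengths than where there was 1 MR peak, and the other MR peaks had lower ones. Peak strength is given as −log10 p of the peak against input, which grows with depth and ranks peaks within 1 list. GR −log10 p ran from 4.98 to 55.7 with a median of 11.4 in the regions, and the median was 9.99 in GR peaks with 1 MR peak. In the regions, MR −log10 p had medians of 13.4 for the strongest peak and 8.60 for the next. For an MR peak alone under its GR peak the median was 11.1, and over all MR CORT peaks it was 9.17. Ranking the MR peaks within a region would by itself set the strongest higher and the next lower. Of the 551 regions, 41 and 51 fell in the 2 weakest of 5 equal groups of the GR list.

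The rule turned on small overlaps at some regions. In 58 of the 551 regions (10.5%) the second MR peak shared 10 bp or less with the GR peak. At Rcc1, Bend4 and Ccm2 it shared 1 bp. Just outside the rule, 55 of the 5875 GR peaks with 1 MR peak had a further MR peak within 10 bp of their edge, and at 4 of the nearest that gap was 0 bp.

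Close MR summits were also found where GR did not span them. Over the genome, 1270 neighbouring pairs of MR summits were no farther apart than 197 bp. Of these, 438 (34.5%) lay under the same GR peak, 78 (6.14%) under 2 different GR peaks, 460 (36.2%) had 1 of the 2 under a GR peak and 294 (23.1%) had neither. The stronger peak of a pair had a median −log10 p of 12.4 under the same GR peak and 9.17 where no GR peak was listed.

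The GR summit lay between the 2 MR summits in 338 of the 521 regions with 2 MR peaks (64.9%, 95% Wilson interval 60.7 to 68.9). It lay in the middle part of the interval, from 25% to 75% of the way across, in 159 of those 338 regions (47.0%). The nearer MR summit was a median of 31 bp from the GR summit and the farther one a median of 138 bp. The GR summit was within 20 bp of an MR summit in 202 regions (38.8%) and within 50 bp in 379 (72.7%). For GR peaks with 1 MR peak, the share within 50 bp was 74.2%.

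The MR summit nearer to GR was more often the stronger. Leaving out ties, the GR summit was nearer to the stronger MR summit in 317 of 501 regions (63.3%, 59.0 to 67.4). It fell inside the stronger MR peak in 245 of 502 regions (48.8%) and inside the weaker in 101 (20.1%), whereas it fell inside the MR peak at 4377 of 5875 GR peaks with 1 (74.5%). The share with GR between the MR summits was 56.8% at spacings under 120 bp, 65.1% from 120 to under 200 bp and 75.6% at 200 bp or more. Over all spacings the share was 59.8% and 60.1%, in place of 64.9%, when at least 50% of each MR peak or its summit had to lie in the GR peak. Where the MR summits lay beyond both edges of the GR peak, as at Sardh, the GR summit was between them by the rule itself. A wider spacing also takes in more of the GR peak, and the rise with spacing was not tested against that.

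**Figure D2:**
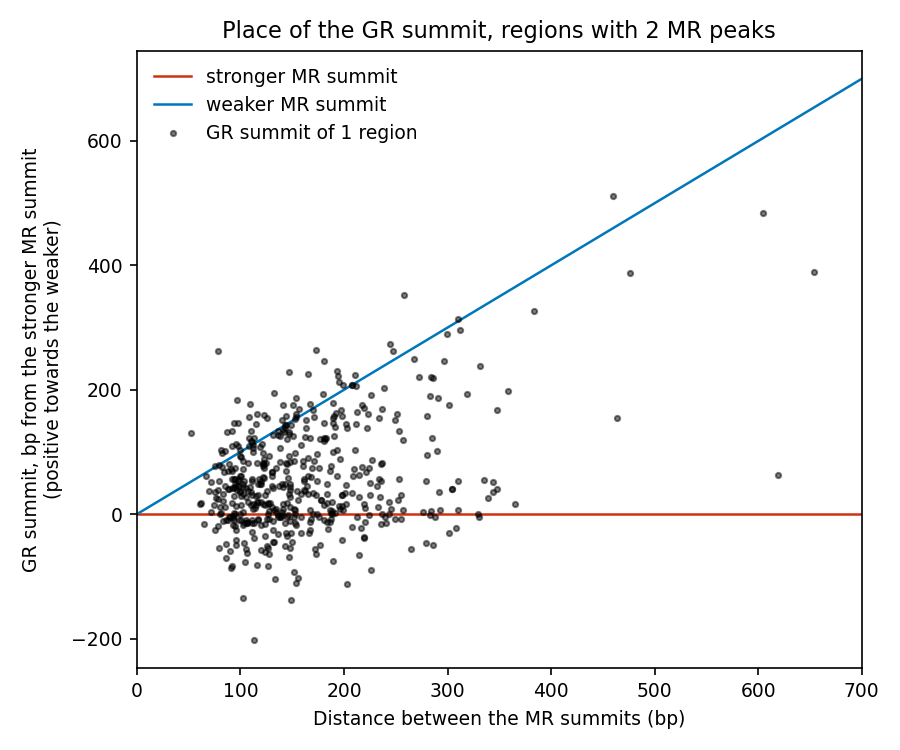
Distance in bp of the GR summit from the stronger MR summit (y axis, positive towards the weaker) against the distance between the MR summits in bp (x axis), 1 point per region with 2 MR peaks of unequal −log10 p (502 regions). The red line marks the stronger and the blue line the weaker MR summit, and points gather along the red line, with medians of 53 bp from the stronger and 97.5 bp from the weaker.

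At the named regions, GR and MR summits could fall within 10 bp of each other or stand far apart. At Extl1 (chr4:134378643-134379148, GR −log10 p 38.8) the GR summit fell on the same base as the MR summit of −log10 p 36.7, and the weaker MR summit, at 8.60, lay 174 bp away. At Nfkbia (chr12:55491813-55492171, GR −log10 p 55.7, the highest of the regions) the GR summit lay between MR summits of −log10 p 10.4 and 44.5, at 175 bp from the weaker and 50 bp from the stronger. At Tshz2, which encodes a zinc finger homeobox protein, the widest spacing of 654 bp had a GR summit of −log10 p 16.7 set 390 bp from an MR summit of 46.0 and 264 bp from the other, of 10.6. Sardh, the mitochondrial sarcosine dehydrogenase, and Hcrtr1, an orexin receptor, had the next widest spacings with a gene within 5 kb, of 476 and 464 bp. The narrowest spacings with a gene within 5 kb were in Myo16, a myosin gene, at 52 bp, and beside the gene models Gm6100 and Gm45856, at 62 and 65 bp, all with MR −log10 p between 5.20 and 8.60.

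**Figure D3:**
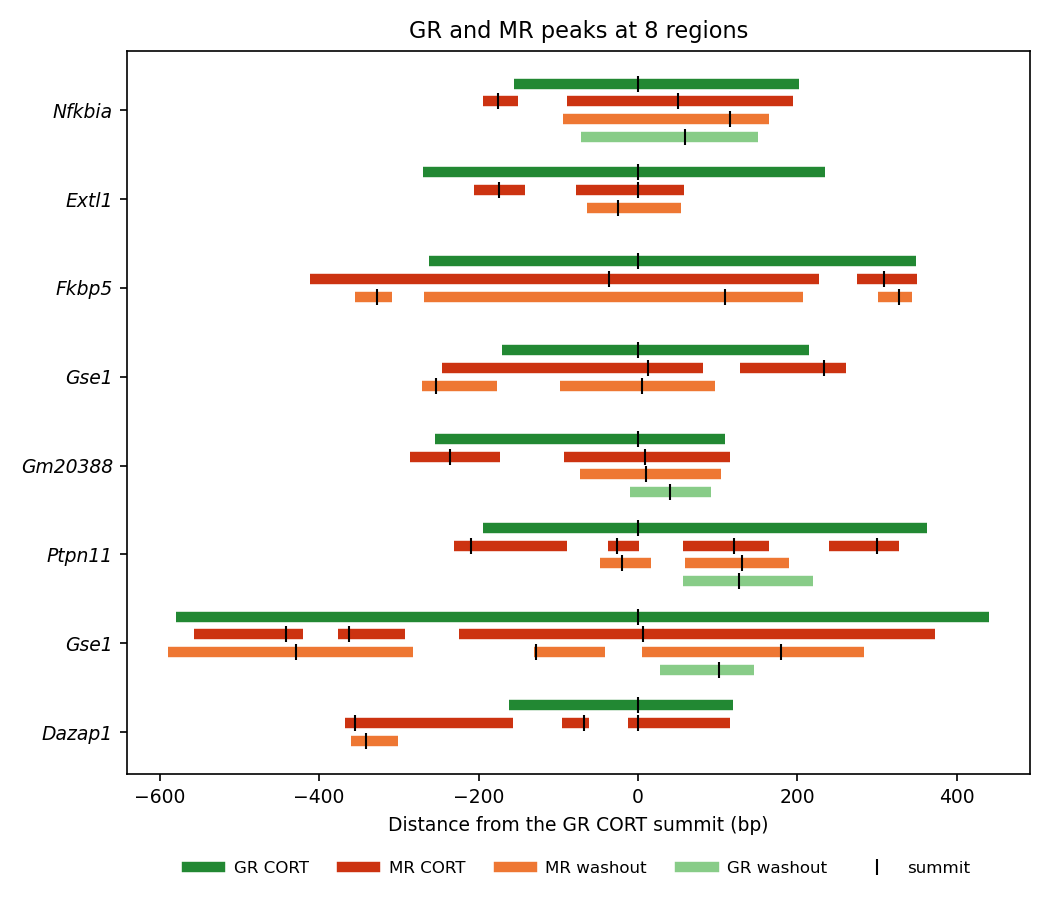
Extent of the GR CORT, MR CORT, MR washout and GR washout peaks at 8 named regions, each on a row with its gene symbol, in bp from the GR CORT summit (x axis). Bars are peaks and ticks are summits, and the Ptpn11 row shows 4 MR CORT peaks, of which 2 have an MR washout peak on them.

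After washout most regions with 2 MR peaks kept at most 1 of them. Both were kept in 77 of 521 regions (14.8%), 1 in 223 (42.8%) and neither in 221 (42.4%). Of all 14530 MR CORT peaks, 24.4% were overlapped by an MR washout peak. In 33 of the 77 regions with both kept, it was the same washout peak that lay over both. The 27 regions with 3 MR peaks kept 0, 1, 2 and 3 of them in 3, 10, 11 and 3 cases, and of the 3 regions with 4 MR peaks 2 kept 2 and 1 kept 3.

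The kept peak of a pair was usually the one that was stronger under CORT. Among the regions with exactly 1 kept, the kept peak was the stronger in 166 of 215 (77.2%, 71.2 to 82.3, 8 ties left out, two-sided exact binomial test, adjusted p = 1.59e-15 over 7 tests by the Benjamini-Hochberg method). The kept peaks had a median MR CORT −log10 p of 14.9 and the lost ones 9.17. The share rose with the difference between the 2 peaks. It was 38 of 72 (52.8%) in the lowest of 3 equal groups by difference (0.0902 to 3.93), 60 of 72 (83.3%) in the middle group and 68 of 71 (95.8%) in the highest (8.86 to 41.2).

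**Figure D4:**
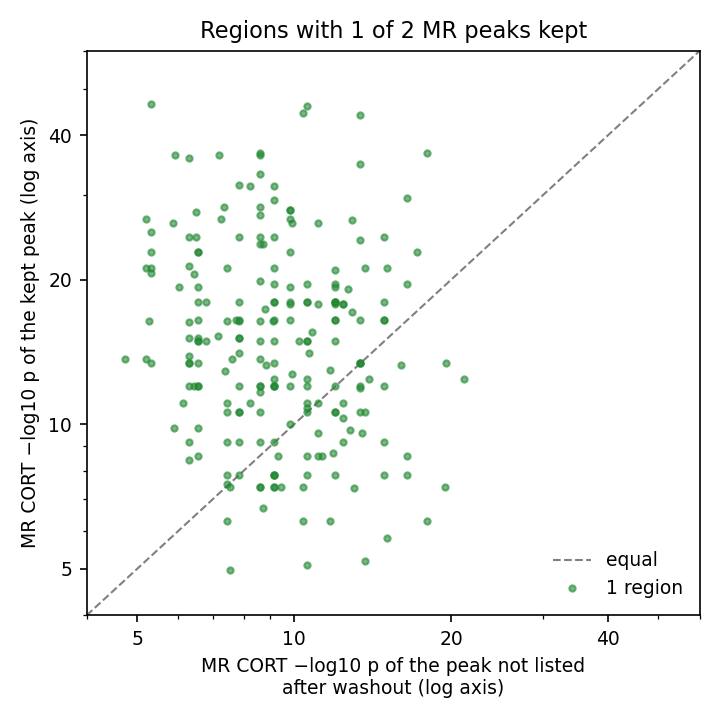
MR CORT −log10 p of the kept peak (y axis) against that of the peak not listed after washout (x axis), both on log axes, 1 point per region with 1 of 2 MR peaks kept (223 regions). The dashed line marks equal values, and 166 points lie above it, 49 below it and 8 on it.

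The kept peak was also more often the one nearer to the GR summit, in 152 of 222 regions (68.5%, 62.1 to 74.2, exact binomial test, adjusted p = 8.98e-08). Strength and nearness went together. Where the stronger peak was also the nearer, it was the one kept in 121 of 144 regions (84.0%), and where the weaker was the nearer, the stronger was still the one kept in 45 of 71 (63.4%, 51.8 to 73.6). The side of the chromosome made no detectable difference, since the kept peak was the one with the lower coordinate in 118 of 223 regions (52.9%, 46.4 to 59.4, exact binomial test, adjusted p = 0.428).

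Wider pairs kept more. Both peaks were kept in 17 of 169 regions (10.1%) with summits under 120 bp apart, 35 of 229 (15.3%) from 120 to under 200 bp and 25 of 123 (20.3%) at 200 bp or more. Exactly 1 was kept in 31.4%, 43.2% and 57.7% of these groups. No test was made of this order, and the part of peak strength in it was not tested.

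Regions with several MR peaks kept at least 1 more often than GR peaks with a single MR peak did. At least 1 MR peak was kept in 327 of 551 regions (59.3%, 55.2 to 63.4) and in 2393 of 5875 GR peaks with 1 MR peak (40.7%, 39.5 to 42.0, two-sided Fisher's exact test, odds ratio 2.12, adjusted p = 3.98e-16). The regions have more than 1 MR peak that could be kept. Counted per MR peak, 425 of 1135 (37.4%, 34.7 to 40.3) were kept in the regions. When the strongest MR peak of each region was set against single MR peaks within 1 of 5 equal groups of the MR list by −log10 p, no difference passed the test (Fisher's exact test, adjusted p from 0.788 to 1.00). In the strongest group, 203 of 295 (68.8%, 63.3 to 73.8) were kept in the regions and 1432 of 2168 (66.1%, 64.0 to 68.0) elsewhere, and in the next group 33.6% and 36.2% were kept.

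**Figure D5:**
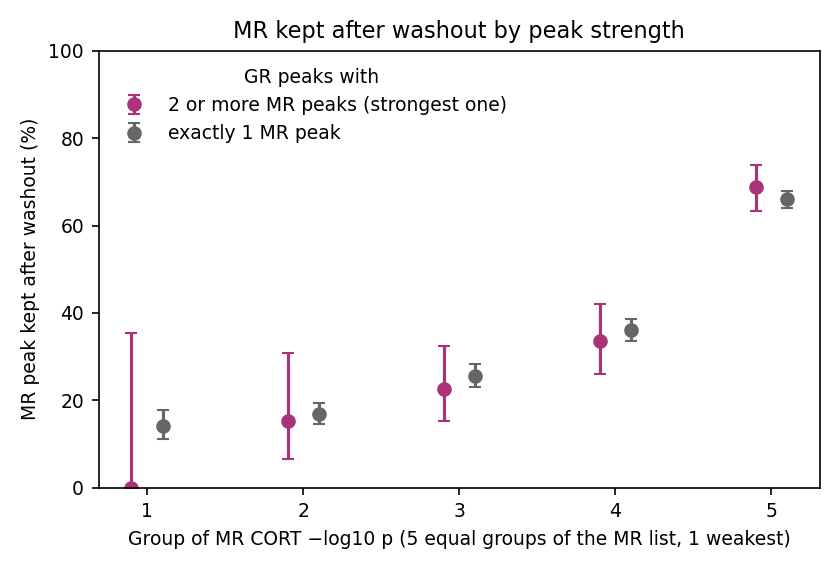
Percentage of MR peaks kept after washout (y axis, with 95% Wilson intervals as bars) by 5 equal groups of MR CORT −log10 p, weakest first (x axis), for the strongest MR peak of regions with 2 or more and for MR peaks alone under a GR peak. Both rise from the weakest to the strongest group, to 68.8% and 66.1%, and their intervals overlap in each group.

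GR itself was rarely listed after washout. A GR washout peak overlapped 25 of the 551 regions (4.54%, 3.09 to 6.61) and 154 of 5875 GR peaks with 1 MR peak (2.62%, 2.24 to 3.06), against 1.84% of all GR CORT peaks. The difference passed the test over all regions (Fisher's exact test, odds ratio 1.77, adjusted p = 0.0196). It did not pass within any of 5 equal groups of the GR list by −log10 p, where the lowest adjusted p was 0.0607. Without the peaks in the Gm20388 locus it was 20 of 529 against 140 of 5725 (odds ratio 1.57, Fisher's exact test, adjusted p = 0.114). Of the 25 regions with a GR washout peak, 22 kept at least 1 MR peak and 7 kept all of them. Over all 551 regions, 327 (59.3%) kept at least 1. The 25 were all in the 2 strongest of the 5 GR groups (6 and 19), and these counts were not matched on strength.

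GREs were counted at the strongest MR summit, at every MR summit and at the GR summit. A GRE lay within 50 bp of the strongest MR summit in 185 of 551 regions (33.6%, 29.8 to 37.6) and of the MR summit in 2073 of 5875 GR peaks with 1 (35.3%, 34.1 to 36.5, Fisher's exact test, odds ratio 0.927, adjusted p = 0.428). Over every MR summit of the regions, the weaker ones included, the share was 294 of 1135 (25.9%, 23.4 to 28.5), and over all MR CORT summits 32.2%. At the GR summit it was lower in the regions, 139 of 551 (25.2%, 21.8 to 29.0) against 1979 of 5875 with 1 MR peak (33.7%, 32.5 to 34.9), intervals that do not overlap, and over all GR CORT summits it was 28.4%. No test was made at the GR summit. At the strongest MR summit the regions had fewer with a 25 bp window or with 4 mismatches allowed (odds ratios 0.783 and 0.815, Fisher's exact test, adjusted p = 0.0248 and 0.0425). With a 100 bp window or with 2 mismatches allowed the difference did not pass (odds ratios 0.878 and 0.725, Fisher's exact test, adjusted p = 0.191 and 0.0573). GREs were seldom found at several summits of a region. There was none near any MR summit in 308 regions (55.9%), a GRE near 1 summit in 196 (35.6%), near 2 in 46 (8.35%) and near 3 in 1. Where several summits had one, neighbouring GRE centres were a median of 171 bp apart (49 to 650 bp, 47 pairs).

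The kept summit of a pair tended to have the better GRE match. Where 1 of 2 MR peaks was kept and the best matches differed, the kept summit had fewer mismatches in 110 of 154 regions (71.4%, 63.8 to 78.0, 69 ties left out, exact binomial test, adjusted p = 1.84e-07). A GRE lay near the kept summit in 74 of 223 regions (33.2%) and near the lost one in 40 (17.9%). It was at the kept summit alone in 54, at the lost one alone in 20 and at both in 20. The stronger peak of a pair also had a GRE more often, in 32.9% against 19.3% for the weaker. When the kept peak was the weaker of the 2, it had the fewer mismatches in 24 of 35 regions (68.6%, 52.0 to 81.4), and where the strengths were closest (the lowest of the 3 groups) in 30 of 47 (63.8%, 49.5 to 76.0).

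AP-1 is another factor whose sites glucocorticoid receptors can use. Its motif, TGACTCA or its reverse complement TGAGTCA, lay within 50 bp of the strongest MR summit in 30 of 551 regions (5.44%) and in 302 of 5875 GR peaks with 1 MR peak (5.14%), against 4.40% of all MR CORT summits.

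Most of the regions lay inside genes. Of the 551, 367 (66.6%) lay in at least 1 gene. Placed by 1 gene each, 322 (58.4%) were in an intron, 34 (6.17%) in an exon and 1 across a gene's edge. Another 45 (8.17%) were up to 5 kb upstream of that gene and 24 (4.36%) up to 5 kb downstream, and some of these lay inside another gene. The last 125 (22.7%) were farther from every gene. Per the study, most GR and MR CORT sites lay in genes or within 5 kb of them. The same shares are not given here for all GR CORT peaks, so no trait particular to the regions can be read from them. The GR summit was within 1000 bp of a protein-coding start in 31 (5.63%), against 6.47% of GR peaks with 1 MR peak. Of 21755 protein-coding genes, 337 (1.55%) had a region in them or within 5 kb, and 41 of these had 2 or more. Of the 3874 protein-coding genes with a GR CORT peak in them or within 5 kb, 337 are 8.70%.

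Some genes held a series of such regions. Gm20388, a long gene model on chromosome 8, had 22 of them, and all 11 regions at Gse1, which encodes a coiled-coil protein, were also counted there because the models overlap. GR −log10 p in the Gm20388 regions ran from 6.41 to 34.4 with a median of 13.9. Of the 22, 14 kept an MR peak and 5 had a GR washout peak. The Gm20388 locus held 3.99% of the regions and 2.45% of all GR CORT peaks. Slit3, a secreted axon guidance protein, had 6 regions and Prkca, protein kinase C alpha, had 4. Adam12, Adgra3, Chst11, Myo16, Ogfod3, Rps6ka2, Stox2 and Vwa5b1 had 3 each.

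Of 30 genes listed as glucocorticoid targets, 16 had a GR CORT peak and 3 had a region of this kind, namely Fkbp5, Sgk1 and Nfkbia. The share of all protein-coding genes with a region was 1.55%. The 3 are 18.8% of the 16 (6.59 to 43.0), against 8.70%. When at least 50% of each MR peak, or its summit, had to lie in the GR peak, Sgk1 and Nfkbia had 1 MR peak each. Sgk1 also dropped out when −log10 q of at least 5 was required. Of the 2 Fkbp5 regions, only the stronger held 2 MR peaks under both overlap rules. The stronger (chr17:28512685-28513296, intron, GR −log10 p 37.0) held MR peaks of −log10 p 49.7 and 9.17 with summits 344 bp apart, and both were kept, with MR washout −log10 p of 43.6 and 8.28. The other (chr17:28513850-28513995, GR −log10 p 12.8) held MR peaks of 12.0 and 6.54, and neither was listed after washout although the first had a GRE with 2 mismatches. No GR washout peak was listed at either. At Nfkbia the MR peak of −log10 p 44.5 had a washout peak of 42.5, the MR peak of 10.4 had none, and GR had a washout peak of 14.2.

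Sgk1 encodes a serine kinase that is a well known target of MR. Its region (chr10:22004788-22004924) lay downstream of the gene, with a GR −log10 p of only 6.00 and MR peaks of 9.34 and 14.4 set 211 bp apart. Both were kept, at 8.71 and 12.2, and GR was not listed after washout. Among Syt2, Ddc, Sgk1 and Dusp4, whose expression was measured in the same study, Dusp4 was the other gene with a region. Dusp4 encodes a MAP kinase phosphatase, and its intron (chr8:34814580-34814998, GR −log10 p 26.7) held MR peaks of 16.5 and 29.6, of which only the stronger was kept, at 11.2. Of the 15 genes listed as receptor chaperones, Fkbp5 alone had a GR CORT peak and a region.

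Of 31 axon guidance genes listed, 16 had a GR CORT peak and 4 had a region. That is 12.9% of the list, against 1.55% of all protein-coding genes, and 25.0% of the 16 (10.2 to 49.5), against 8.70%. The 4 are the secreted ligands Slit1 and Slit3, the membrane-bound ligand Efna5 and the receptor Nrp2. When at least 50% of each MR peak, or its summit, had to lie in the GR peak, Nrp2 had 1 MR peak. Efna5 dropped out when −log10 q of at least 5 was required. Gene length was not taken into account, and the list was chosen with earlier results of these data known. The 6 Slit3 regions lay in introns between chr11:35564816 and chr11:35625026. Their GR −log10 p was 8.66 to 14.2 and their MR −log10 p 6.28 to 18.0. When −log10 q of at least 5 was required, only the second and the fourth still held 2 or more MR peaks. The second and the third fell below 2 when at least 50% of each MR peak had to lie in the GR peak. With the MR summit required there, the third did. The 6 regions kept 1, 2, 1, 2, 0 and 1 MR peaks in order along the chromosome. In 3 of them (the first, the third and the sixth) the single kept peak was the weaker. At the first, an MR peak of 18.0 lying 5 bp from the GR summit was not listed after washout and an MR peak of 6.28 at 218 bp was kept, at 9.01. At the fifth, where neither peak was kept, the MR peak of 16.5 had a GRE with 2 mismatches.

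Slit1 kept both MR peaks (CORT 29.9 and 10.5, washout 13.6 and 10.3, 284 bp apart). Efna5 also kept both (CORT 7.42 and 8.60, washout 10.4 and 6.42), with a GR −log10 p of 9.29. Nrp2, whose region lay upstream of the gene, kept neither of its MR peaks of 13.4 and 19.6. None of the 19 listed clock genes and none of the 14 sympathetic neuroblast factors had a region, while 8 and 6 of them had a GR CORT peak. Beside the 1.55% of all protein-coding genes and the 8.70% of those with a GR CORT peak, lists this short could not show fewer.

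Regions with the strongest GR peaks varied in what they kept. At Rara, the retinoic acid receptor alpha gene, GR −log10 p was 30.1 and MR peaks of 9.17 and 38.5 were both kept, at 9.01 and 16.2, with a GR washout peak of 13.3. At 5330439M10Rik (chr10:118121624-118122138, GR −log10 p 30.1) 1 MR washout peak of 51.9 lay over both MR peaks, of 24.5 and 46.0, and the weaker had the GRE, with 2 mismatches. Myo16 (chr8:10613135-10613518, GR −log10 p 28.4) likewise had 1 washout peak, of 11.3, over MR peaks of 12.0 and 21.2. At Gse1 and Gm20388, 3 regions with 2 MR peaks kept the stronger alone. Their MR CORT peaks were 35.9 and 6.28 just upstream of Gse1, 26.8 and 7.23 in its intron, and 26.8 and 9.82 in Gm20388.

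Regions with 3 or 4 MR peaks could keep any part of them. At Ptpn11 (chr5:121187595-121188152, GR −log10 p 23.4) the MR peaks had CORT −log10 p of 7.83, 12.0, 19.3 and 11.1 with summits 183, 147 and 179 bp apart. The middle 2 were kept, at washout −log10 p of 15.5 and 30.3, and a GR washout peak of 20.6 was listed. The widest region, in an intron of Gse1 (chr8:120328405-120329424), held MR peaks of 16.5, 9.43 and 26.8 that were all kept, the first and second under 1 washout peak of 18.8. Lrrc36, which encodes a leucine-rich repeat protein, kept all of 14.9, 6.54 and 14.9 under 1 washout peak of 13.2. Camta1, a calmodulin-binding transcription activator, kept only its strongest, of 21.2. Dazap1, an RNA-binding protein, kept only its first, of 9.17, which lay 355 bp from the GR summit, while the peak of 10.6 at the GR summit was not listed.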

How the data were processed

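N2A ChIP-nexus data for EGFP-GR, mCherry-MR and input after vehicle, CORT and washout were used as 6 MACS2 peak lists and 6 lists of MACE border pairs. The authors aligned reads to GRCm38 (mm10) with Bowtie 2, removed barcode duplicates, filtered on mapping quality, combined replicates and called peaks with MACS2 2.1.1.20160309 against input at a false discovery rate of 0.05. Tool names and builds follow the submitters' processing notes and the study's methods. The deposited −log10 columns hold −log10 p and −log10 q against input, and the deposited score is the whole part of 10 times −log10 q. The deposited p-value of each border pair was not used. Several headings in the peak lists stood over other columns, and each column was identified from its values.

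Peaks on chromosomes 1 to 19 and X were used, without 19 GR and 30 MR CORT peaks in the receptors' coding exons. Peaks overlapped when they shared 1 bp. Genes were those of GENCODE M21, in the gene or within 5 kb. Sequence was read from GRCm38 with pysam 0.24.0 and samtools 1.23.1. Shares have 95% Wilson intervals. Two-sided exact binomial and Fisher's exact tests (scipy 1.17.1) were adjusted together over 7 tests, with a threshold of 0.05. Comparisons by strength used 5 equal groups of −log10 p, each set adjusted over its 5 tests. Intervals cover counting error over regions alone. The lists hold no read counts, so depth is not known from them. The functions were tested on simulated data.

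The regions, gene lists and tests were chosen with earlier results of these data known. The regions named were, among those with a gene within 5 kb, the 10 with the highest GR −log10 p, the 5 with the most MR peaks, all at listed genes, the 3 widest and 3 narrowest spacings, and the 5 strongest with 1 of 2 MR peaks kept. Border pairs of GR were not used here. Alternatives changed the overlap, the thresholds on −log10 q, the Gm20388 locus, the meaning of kept, the GRE, the gene distance and the gene type. Others left out GR peaks on a vehicle peak or an input border pair, or compared within the groups by strength. One alternative, at least 1 neighbouring pair of MR summits 150 bp or more apart, was added after seeing the data.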

Additional observations from a re-analysis of the deposited data

Results flagged for a closer look

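Border pairs, which mark where the exonuclease stopped on opposite strands and took no part in the main comparisons, were present above the input level. An MR border pair overlapped 143 of the 551 regions after CORT (26.0%) and 53 after washout (9.62%), against 2 regions for the border pairs of input. The share after CORT was 17.1% in GR peaks with 1 MR peak. These shares count the whole GR peak, which was wider in the regions (median 266 against 139 bp), and width was not matched. Counted per MR peak, 14.9% in the regions had an MR CORT border pair, against 10.1% of all MR CORT peaks. Of the 551 regions, 15 had an MR CORT border pair in 2 or more of their MR peaks. The stronger of 2 MR peaks had one in 113 of 502 regions (22.5%) and the weaker in 40 (7.97%).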

How the results depend on the processing

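No paired analysis was possible because each condition has 1 list made from combined replicates, and for the same reason no replicate could be left out. Which peaks are listed depends on depth, and a peak not listed after washout may lie below the threshold. The kept peak being the stronger (73.8% to 85.0%), nearer to GR (62.8% to 74.2%) and with fewer GRE mismatches (66.4% to 74.0%) passed the test under each of the 9, 8 and 10 alternatives run. Genes are counted here over every gene type, in the gene or within 5 kb, which gave 490 under the main rule. Requiring −log10 q of 5 left 184 regions with a median spacing of 166 bp and GR between the MR summits in 57.2%. It left 170 genes and a GRE odds ratio of 1.00 on the other side of equality. The summit rule gave a spacing of 138 bp and 60.1% between, with a GR washout odds ratio of 1.64 that no longer passed, and the 50% rule gave 59.8% between. Without Gm20388 the GR washout odds ratio was 1.57. The GRE odds ratio passed with 4 mismatches (0.815) and a 25 bp window (0.783), and did not with 2 mismatches (0.725) or a 100 bp window (0.878). Genes fell from 490 to 325 when only those that held a region were counted. In 192 checks of a named region under an alternative, 142 still had 2 or more MR peaks. With at least 1 neighbouring pair of MR summits 150 bp or more apart, there were 261 regions with a median spacing of 198 bp. GR lay between in 71.4%, there were 249 genes, and the lower coordinate was kept in 48.8%. The odds ratios were 4.13 for an MR peak kept and 3.25 for a GR washout peak (Fisher's exact test, adjusted p = 1.73e-25 and 3.27e-05). Strength was not matched, and GR peaks with 1 MR peak were not filtered on spacing. Each region also had more than 1 MR peak that could be kept, so the ratio of 4.13 cannot show more keeping per peak. Within 5 equal groups by strength, weakest first, the odds ratios for the strongest MR peak kept were 0, 0.884, 0.856, 0.893 and 1.13, and for a GR washout peak 0, 0, 0, 3.82 and 1.15, none past the test. Both groups had fewer peaks in each group. The cause of the other changes was not tested.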
